A study of Mus musculus with 6 samples.

Results

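The genes described here are 37 mouse genes of cholesterol and fatty acid synthesis, chosen by name for their roles in these pathways. Their values were not the rule of choice, but earlier results of these data were known when they were chosen. They comprise enzymes that make farnesyl diphosphate and squalene through mevalonate, enzymes that turn squalene into cholesterol, the SREBP transcription factors with the proteins that control them, and enzymes that make, desaturate, elongate and activate fatty acids. Probes were found through their RefSeq accessions, which named 36 of the 37 genes among 22911 genes on the array. No probe carried an accession of *Acat2*, the cytosolic acetyl-CoA acetyltransferase, so it has no value here. All 36 passed the filter on dim probes and were well above background in both groups, and they are among the 14898 genes tested.

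RNA was compared between WT cells, which are OS3 glial cells carrying an empty vector, and IG27 cells, which are OS3 glial cells carrying a pcDNA3.1 plasmid for *H3f3a* with the H3.3K27M mutation. OS3 is a glial line from the brain of newborn male C3H mice (C3H/HeN in the study's methods), immortalized with SV40, so both groups share this background and the SV40 sequence. Both groups were grown for 2 days in minimum essential medium α with fetal bovine serum, insulin and glucose, and RNA of 3 dishes per group was hybridized to 1 single-color Agilent array each. Cells that took up a plasmid were grown into clones under drug selection, and the 3 dishes of a group are separate dishes of 1 line, so the p-values measure the spread between dishes and not between lines. The serum in the medium also supplies lipids to both groups.

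Cholesterol is built from acetyl-CoA by way of mevalonate, farnesyl diphosphate, squalene and lanosterol. The enzymes of this route, and many of those that make fatty acids, are known targets of the SREBP factors, which are held in the endoplasmic reticulum with their escort SCAP by the INSIG proteins when sterols are plentiful, and which are cut in the Golgi and enter the nucleus when sterols are scarce. In the brain cholesterol is made locally, much of it by glia, because lipoprotein cholesterol of the blood hardly crosses the blood-brain barrier.

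Promoter sequences were matched by symbol to a RefSeq table of the mouse assembly GRCm38.p6, from 250 bases before to 50 bases after the start of transcription, and 31 of the 37 genes had an entry. Windows are printed for *Scap* and *Nsdhl*, which fell most among the SREBP control genes and among the enzymes from squalene to cholesterol, for *Insig1*, which rose while its paralog *Insig2* fell, and for *Hmgcs1*, which carries a match to a sterol regulatory element. Capitals mark 3 motifs on either strand, the letters TCACNCCAC (an SRE-like motif, where SRE stands for sterol regulatory element), the E-box CACGTG and the CCAAT box. All 4 windows lie on the + strand of their chromosome and read 5′ to 3′. They are chr9:110333038-110333337 for *Scap* (1 of its overlapping windows), chr5:28071162-28071461 for *Insig1*, chr13:119690101-119690400 for *Hmgcs1* and chrX:72918271-72918570 for *Nsdhl*.
Scap: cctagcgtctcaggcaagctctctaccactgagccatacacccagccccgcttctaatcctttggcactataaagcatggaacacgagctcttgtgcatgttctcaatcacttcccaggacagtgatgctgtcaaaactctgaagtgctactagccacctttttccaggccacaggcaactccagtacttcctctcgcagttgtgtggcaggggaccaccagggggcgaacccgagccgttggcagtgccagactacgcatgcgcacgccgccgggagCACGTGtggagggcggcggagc
Insig1: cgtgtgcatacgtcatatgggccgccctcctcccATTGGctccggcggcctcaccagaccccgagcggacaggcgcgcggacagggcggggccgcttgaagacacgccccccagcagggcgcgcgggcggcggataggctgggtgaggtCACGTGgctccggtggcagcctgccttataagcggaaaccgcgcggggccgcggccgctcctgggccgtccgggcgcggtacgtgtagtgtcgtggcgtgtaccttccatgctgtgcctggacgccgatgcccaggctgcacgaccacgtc
Hmgcs1: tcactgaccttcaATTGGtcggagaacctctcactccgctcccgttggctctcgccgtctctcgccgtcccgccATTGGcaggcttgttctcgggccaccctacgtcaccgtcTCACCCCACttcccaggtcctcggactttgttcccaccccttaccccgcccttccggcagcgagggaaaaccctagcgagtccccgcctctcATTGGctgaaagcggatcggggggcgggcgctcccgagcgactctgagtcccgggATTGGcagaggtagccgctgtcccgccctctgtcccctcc
Nsdhl: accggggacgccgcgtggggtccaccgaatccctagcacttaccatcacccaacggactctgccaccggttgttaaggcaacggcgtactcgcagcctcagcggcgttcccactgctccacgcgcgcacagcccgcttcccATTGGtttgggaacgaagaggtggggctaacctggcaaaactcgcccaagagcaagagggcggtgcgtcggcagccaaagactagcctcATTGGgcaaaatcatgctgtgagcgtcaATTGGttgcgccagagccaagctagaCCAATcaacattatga

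The SRE-like motif was found in 2 of the 31 promoters (6.45%), those of *Hmgcs1* and *Acsl1*, against 1.44% of the windows of 27025 genes. The E-box was found in 6 (19.4%), those of *Hsd17b7*, *Sc5d*, *Dhcr7*, *Scap*, *Insig1* and *Elovl5*, against 8.09% of all genes. The CCAAT box was found in 25 (80.6%) against 41.1%, and the GC box GGGCGG, which is not in capitals above, also in 25 (80.6%) against 38.2%. No motif contains the letters of another. Among genes with a promoter entry and a value, the CCAAT box was in 15 of 20 that were lower in IG27 cells, in 6 of 6 that were higher and in 4 of 4 that were not called. Without a promoter entry were *Fdft1*, *Sqle* and *Scd1*, which were higher, and *Fdps*, *Scd2* and *Fads1*, which were lower. The shares over all genes count windows whether or not the gene was expressed, and a share among expressed genes was not computed. A match describes the letters of the window only.

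Expression is given as the log2 of the deposited intensity minus the 75th percentile of the same array, called normalized log2 intensity below, and values of single arrays are listed in the order of replicates 1 to 3. A gene was called when its adjusted p was under 0.05 (limma, two-sided, Benjamini-Hochberg adjustment over the 14898 genes). Fold changes are IG27 over WT. On the 5 arrays with complete scanner output, 58.8% to 61.2% of the probes were well above background and no spot was saturated. The values of IG27 replicate 2 come from the deposited value table, since its scanner output is cut short. With 3 arrays a group, precision is limited by their number.

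Of the 36 genes, 32 (88.9%) were called, 9 higher (25.0%) and 23 lower (63.9%) in IG27 cells. Over all genes tested 70.5% were called, 30.5% higher and 40.0% lower, so that a call alone is common in this comparison. The median log2 fold change of the 36 genes was -0.40, against -0.07 over all genes tested. The arrays of the groups did not overlap in 33 of the 36 genes (91.7%) against 75.7% of all genes. Most of the changes were small, since at least a 2-fold change was called in 6 of the 36 (16.7%) against 23.1% of all genes (2 higher and 4 lower, against 11.5% and 11.7% of all genes). Of the 23 genes that were lower, 10 had a log2 fold change of under 0.5 in size, 9 from 0.5 to 1 and 4 of 1 or more. The 4 that fell at least 2-fold were *Scap*, *Acsl3*, *Nsdhl* and *Pmvk*, and those that rose as far were *Scd1* and *Sqle*. *Idi1*, *Dhcr7*, *Acacb* and *Elovl1* were not called. These genes were measured a little more precisely than most, with a median standard error of 0.063 against 0.073, and among genes with a mean signal above that of the median gene 29 of 32 members were called (22 lower and 7 higher), against a background of 72.2% called, 46.0% lower and 26.1% higher.

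**Figure D1:**
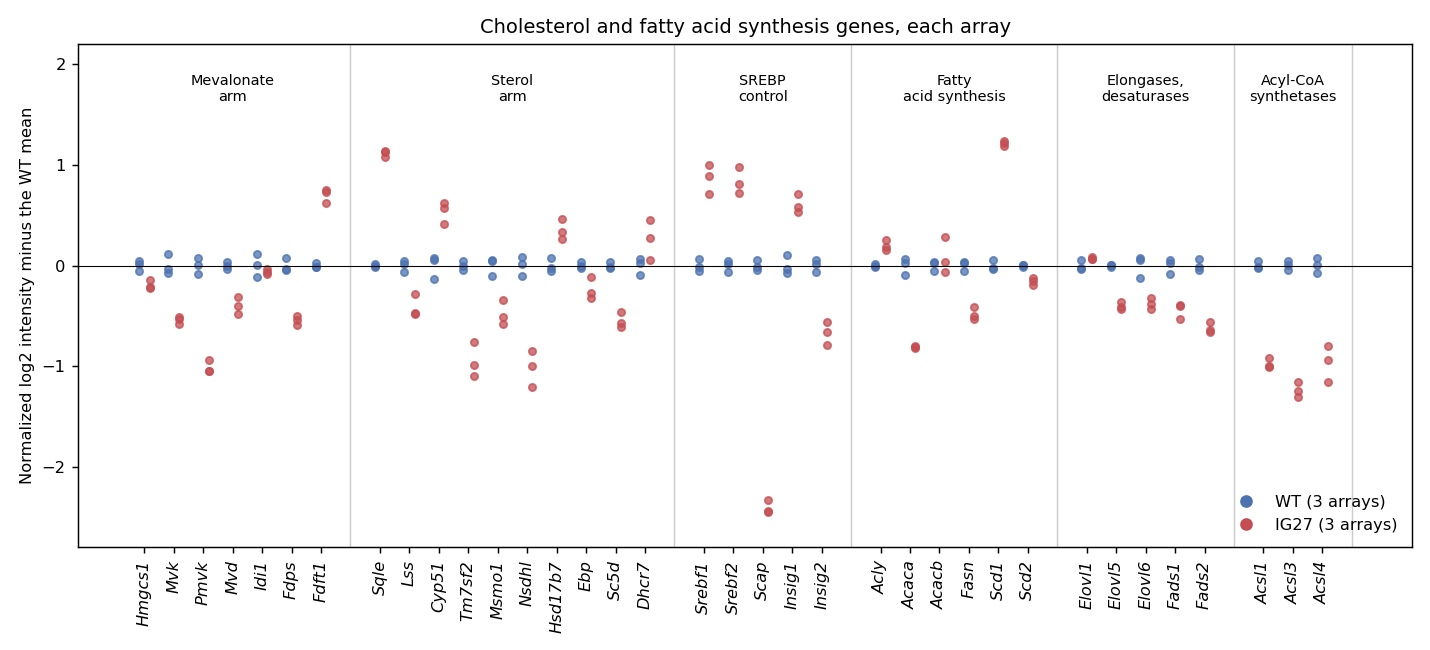
Normalized log2 intensity of each of the 36 genes on each array, minus the mean of the WT arrays, with 3 points for WT (blue) and 3 for IG27 (red) and the genes grouped by role. The IG27 points of *Scap* lie farthest from the WT mean, and both directions occur within the mevalonate, sterol, SREBP control and fatty acid synthesis groups.

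Of the enzymes from acetyl-CoA to squalene, 5 of the 7 measured fell, 1 rose and 1 was not called, with a median log2 fold change of -0.40. *Pmvk*, which encodes phosphomevalonate kinase, gave normalized log2 intensities of 5.15, 5.06 and 5.22 in WT cells and of 4.20, 4.10 and 4.10 in IG27 cells. Its groups lay far apart, and it fell by 1.01 on the log2 scale (SE 0.06, 2.02-fold, adjusted p = 2.1e-05). *Mvk*, mevalonate kinase, read 4.48, 4.63 and 4.44 in WT and 4.01, 3.94 and 3.98 in IG27 cells (log2 fold change -0.54, SE 0.06, adjusted p = 3.8e-04). Its other, dimmer probe did not pass the test (log2 fold change 0.02, adjusted p = 0.796), so the fall of *Mvk* rests on 1 of its probes. *Fdps*, which makes farnesyl diphosphate, was at 6.05, 6.06 and 6.16 in WT and at 5.55, 5.50 and 5.59 in IG27 cells (log2 fold change -0.54, SE 0.05, adjusted p = 1.9e-04).

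The member of this arm that opposed the others was *Fdft1*, squalene synthase, which joins farnesyl units and commits them to sterols. It read 3.75, 3.76 and 3.80 in WT and 4.50, 4.52 and 4.39 in IG27 cells, and every IG27 array was above every WT array. The log2 fold change was 0.70 (SE 0.05, 1.62-fold, adjusted p = 5.7e-05). *Mvd*, the diphosphomevalonate decarboxylase, fell by 0.40 (SE 0.06, adjusted p = 0.0011) and *Hmgcs1*, the cytosolic HMG-CoA synthase, by 0.19 (SE 0.05, adjusted p = 0.015). The call of *Hmgcs1* was lost when WT replicate 3 (adjusted p = 0.051) or IG27 replicate 2 (adjusted p = 0.052) was left out. *Idi1*, the isopentenyl-diphosphate isomerase, lay at 4.16, 3.94 and 4.05 in WT and at 3.98, 4.02 and 3.97 in IG27 cells, with groups that overlapped and a log2 fold change of -0.06 (95% confidence interval -0.23 to 0.11, adjusted p = 0.455).

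Of the 10 enzymes that lead from squalene to cholesterol, 6 fell, 3 rose and 1 was not called, with a median log2 fold change of -0.32. *Sqle*, squalene epoxidase, which catalyzes an early rate-limiting oxygenation of this arm, read 4.54, 4.53 and 4.56 in WT and 5.68, 5.62 and 5.67 in IG27 cells. It rose on every array by far more than the dishes of a group differed (log2 fold change 1.11, SE 0.04, 2.16-fold, adjusted p = 3.4e-06). *Lss*, lanosterol synthase, which acts on the product of SQLE, fell by 0.41 (SE 0.07, adjusted p = 0.0023). *Cyp51*, the lanosterol demethylase that follows, was at 3.59, 3.38 and 3.57 in WT and at 4.14, 4.08 and 3.93 in IG27 cells (log2 fold change 0.54, SE 0.09, adjusted p = 0.0016).

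After lanosterol demethylation most of the measured enzymes fell. *Tm7sf2*, a sterol reductase, read 3.97, 3.88 and 3.92 in WT and 3.17, 2.93 and 2.83 in IG27 cells (log2 fold change -0.95, SE 0.09, adjusted p = 1.8e-04). *Nsdhl*, a sterol dehydrogenase of the C4 demethylation complex, read 3.49, 3.37 and 3.57 in WT and 2.27, 2.63 and 2.48 in IG27 cells. Its IG27 dishes differed more from each other than its WT dishes did, and the fall of 1.01 (SE 0.10, 2.02-fold, adjusted p = 2.1e-04) was still larger than that spread. *Msmo1*, the C4 methyl oxidase of the same complex, fell by 0.48 (SE 0.08, adjusted p = 0.0024), whereas *Hsd17b7*, its ketoreductase, rose from 3.05, 2.92 and 2.96 in WT to 3.31, 3.24 and 3.44 in IG27 cells (log2 fold change 0.36, SE 0.07, adjusted p = 0.0042). The genes of this complex thus did not change in 1 direction.

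*Sc5d*, the lathosterol desaturase, was at 2.70, 2.66 and 2.65 in WT and at 2.21, 2.10 and 2.06 in IG27 cells (log2 fold change -0.55, SE 0.06, adjusted p = 2.1e-04). *Ebp*, the sterol isomerase, fell by 0.24 (SE 0.07, adjusted p = 0.019), and lost its call when WT replicate 3 (adjusted p = 0.058), IG27 replicate 2 (adjusted p = 0.060) or IG27 replicate 3 (adjusted p = 0.059) was left out. The dimmer probe of *Ebp* had a log2 fold change of -0.24 that did not pass the test (adjusted p = 0.072). *Dhcr7*, which encodes 7-dehydrocholesterol reductase, read 1.03, 1.16 and 1.19 in WT and 1.18, 1.40 and 1.58 in IG27 cells. Its groups overlapped and it was not called (log2 fold change 0.26, 95% confidence interval -0.011 to 0.53, adjusted p = 0.078), although it passed the threshold in 5 of 18 other settings, among them without IG27 replicate 1 (0.36, adjusted p = 0.015).

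**Figure D2:**
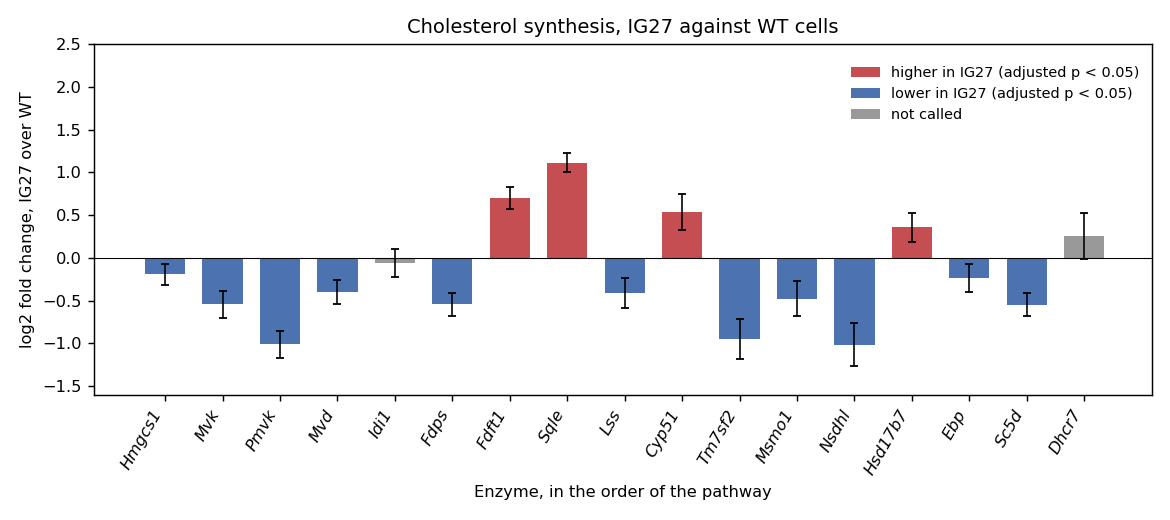
Log2 fold change (IG27 over WT) of the enzymes of cholesterol synthesis in the order of the pathway, with 95% confidence intervals from limma as error bars. Bars above 0 for *Fdft1* and *Sqle* stand between bars below 0 for the preceding enzymes of the mevalonate arm and for *Lss*. The bars of *Cyp51*, *Hsd17b7* and *Dhcr7* also lie above 0, and *Dhcr7* was not called.

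The ratio of neighboring enzymes within an array shows this unequal change without the scaling of the arrays. The log2 ratio of *Sqle* to *Lss* was higher by 1.52 in IG27 cells (SD 0.05 in WT and 0.09 in IG27, n = 3 arrays each), and that of *Fdft1* to *Fdps* by 1.24 (SD 0.04 and 0.11). These pairs, and those of *Insig1* with *Insig2* and of *Scd1* with *Scd2* below, were chosen after their values were seen. Each of the 4 gave p = 0.1 in an exact two-sided permutation test over arrays (0.1 after Benjamini-Hochberg adjustment), which is the smallest value that 3 against 3 arrays can give.

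All 5 SREBP control genes changed, 3 upward and 2 downward, with a median log2 fold change of 0.61. Both genes of the factors themselves rose. *Srebf2*, whose product mainly drives cholesterol genes, read 1.46, 1.57 and 1.55 in WT and 2.24, 2.33 and 2.50 in IG27 cells (log2 fold change 0.83, SE 0.08, 1.78-fold, adjusted p = 1.4e-04). *Srebf1*, whose product mainly drives fatty acid genes, read -3.85, -3.98 and -3.94 in WT and -3.21, -3.04 and -2.93 in IG27 cells. The probe is dim but exceeded background on each complete array, and the log2 fold change was 0.86 (SE 0.08, 1.82-fold, adjusted p = 1.6e-04).

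*Scap*, which escorts the SREBP precursors from the endoplasmic reticulum to the Golgi, had the largest fall of the 36 genes. It read 3.91, 3.88 and 3.97 in WT and 1.59, 1.48 and 1.47 in IG27 cells, so that the gap between the groups was many times the spread within either. It fell by 2.41 on the log2 scale (95% confidence interval -2.54 to -2.27, 5.30-fold, adjusted p = 4.0e-07), and 7.57% of all genes tested had a larger change. This value rests on 1 probe.

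The genes of the INSIG proteins, which retain the SCAP and SREBP complex in the endoplasmic reticulum, moved in opposite directions. *Insig1*, itself a known SREBP target, read -0.57, -0.43 and -0.61 in WT and 0.048, -0.0075 and 0.18 in IG27 cells (log2 fold change 0.61, SE 0.07, 1.52-fold, adjusted p = 4.8e-04). *Insig2* read 3.17, 3.25 and 3.29 in WT and 2.67, 2.58 and 2.44 in IG27 cells (log2 fold change -0.67, SE 0.07, 1.59-fold, adjusted p = 2.9e-04). The log2 ratio of *Insig1* to *Insig2* was higher by 1.28 in IG27 cells (SD 0.11 in WT and 0.20 in IG27).

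Of the 9 further genes of SREBP processing and of sterol-sensing protein degradation, all 9 were called, 3 higher and 6 lower, with a median log2 fold change of -0.36. The proteases that release SREBP in the Golgi both fell. *Mbtps2*, the site-2 protease, read 2.62, 2.43 and 2.61 in WT and 1.26, 1.16 and 1.13 in IG27 cells (log2 fold change -1.37, SE 0.07, adjusted p = 1.1e-05), and *Mbtps1*, the site-1 protease, fell by 0.70 (SE 0.07, adjusted p = 1.3e-04). *Mbtps2* lies on chromosome X and *Mbtps1* on chromosome 8, where the median log2 fold changes of all tested genes were -0.59 and -0.67, so that *Mbtps1* lay near the median of its chromosome. *Rnf139*, the gene of a ubiquitin ligase of the endoplasmic reticulum, rose by 0.90 (SE 0.07, adjusted p = 1.6e-04) in a fit without WT replicate 1, whose spot had an outlier flag. The INSIG-associated genes *Erlin1* and *Erlin2* fell by 0.44 and 0.36, and *Erlin2* also lies on chromosome 8.

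**Figure D3:**
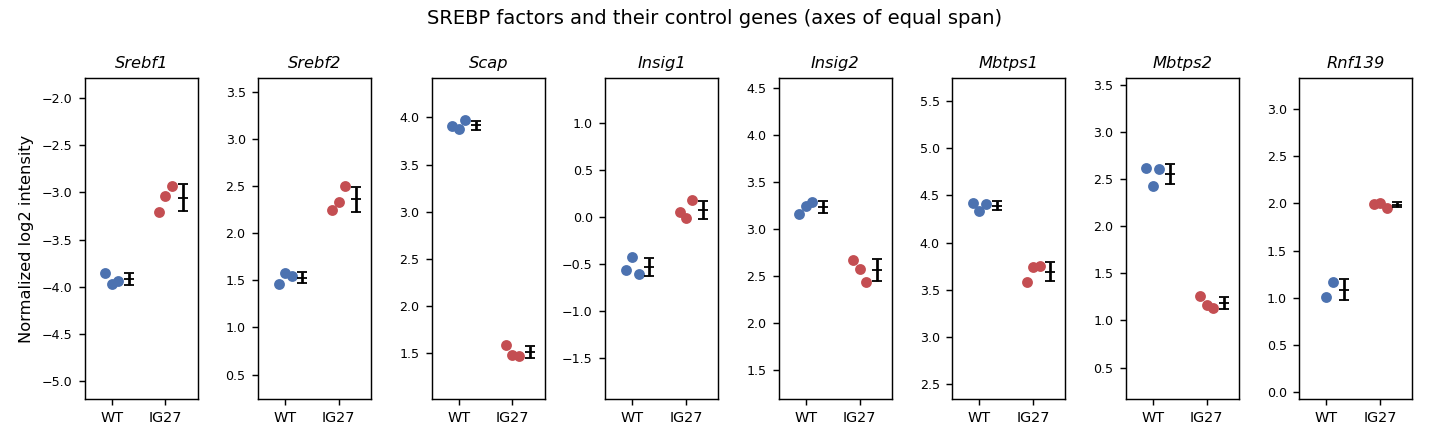
Normalized log2 intensity of the SREBP factors, *Scap*, the INSIG genes and further processing genes on each WT (blue) and IG27 (red) array, with the mean and SD of each group beside the points and every axis spanning the same log2 range. *Srebf1*, *Srebf2*, *Insig1* and *Rnf139* (2 WT arrays) lie higher in IG27 cells, and *Scap*, *Insig2*, *Mbtps1* and *Mbtps2* lie lower.

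Of the 6 genes of fatty acid synthesis and the introduction of the initial double bond, 3 fell, 2 rose and 1 was not called, with a median log2 fold change of -0.037. *Acaca*, the acetyl-CoA carboxylase that makes malonyl-CoA for synthesis, read 3.78, 3.66 and 3.82 in WT and 2.93, 2.95 and 2.95 in IG27 cells (log2 fold change -0.81, SE 0.06, 1.75-fold, adjusted p = 3.6e-05). *Fasn*, fatty acid synthase, which builds palmitate from malonyl-CoA, read 6.38, 6.37 and 6.29 in WT and 5.93, 5.82 and 5.84 in IG27 cells (log2 fold change -0.48, SE 0.05, adjusted p = 3.3e-04). Both core enzymes of the chain fell with no overlap between groups, while the groups did not overlap in 75.7% of all genes tested. *Acly*, which cleaves citrate to acetyl-CoA upstream of both pathways, rose from 4.41, 4.39 and 4.40 in WT to 4.66, 4.56 and 4.58 in IG27 cells, a small change (log2 fold change 0.20, SE 0.05, 1.15-fold, adjusted p = 0.010). *Acacb*, whose product makes the malonyl-CoA that limits fatty acid oxidation, read -1.32, -1.30 and -1.40 in WT and -1.06, -1.40 and -1.31 in IG27 cells and was not called (0.08, 95% confidence interval -0.15 to 0.32, adjusted p = 0.463), while its other probe fell by 0.60 (adjusted p = 1.9e-04). The direction of *Acacb* is therefore unsettled between its probes.

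The stearoyl-CoA desaturases, which make oleate and palmitoleate, differed from each other. *Scd1* read 2.14, 2.15 and 2.23 in WT and 3.36, 3.39 and 3.41 in IG27 cells, the largest rise of the 36 genes (log2 fold change 1.21, SE 0.05, 2.32-fold, adjusted p = 3.2e-06). *Scd2*, the form known as the main one of brain, ran from 6.65 to 6.68 in WT and from 6.47 to 6.54 in IG27 cells (log2 fold change -0.16, SE 0.04, 1.12-fold, adjusted p = 0.019). The call of this small fall was lost without WT replicate 3 (adjusted p = 0.057) or IG27 replicate 2 (adjusted p = 0.067). Within arrays the log2 ratio of *Scd1* to *Scd2* was higher by 1.37 in IG27 cells (SD 0.04 in WT and 0.05 in IG27). A further paralog, *Scd3*, fell by 1.66 at its brightest probe (SE 0.08, adjusted p = 8.1e-06), but another of its probes, also above background throughout, had a log2 fold change of 1.73. The desaturase genes are close in sequence, and whether their probes read each other's RNA was not tested.

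Of the 5 elongases and further desaturases 4 fell and 1 was not called, with a median log2 fold change of -0.40. *Fads2*, the delta-6 desaturase, which opens the route to long polyunsaturated fatty acids, read 3.19, 3.17 and 3.27 in WT and 2.57, 2.55 and 2.65 in IG27 cells (log2 fold change -0.62, SE 0.05, adjusted p = 9.7e-05). *Fads1*, the delta-5 desaturase, read 4.02, 3.88 and 3.99 in WT and 3.43, 3.55 and 3.57 in IG27 cells (log2 fold change -0.44, SE 0.07, adjusted p = 0.0011). *Elovl5*, which lengthens polyunsaturated chains, read 3.33, 3.32 and 3.33 in WT and 2.97, 2.89 and 2.91 in IG27 cells (log2 fold change -0.40, SE 0.05, adjusted p = 3.0e-04), and its dimmer probe had a log2 fold change of -0.23 that did not pass the test (adjusted p = 0.219). These 3 enzymes of the polyunsaturated route fell without overlap between the groups, while the groups did not overlap in 75.7% of all genes tested. *Elovl5* lies on chromosome 9, where the median log2 fold change of all tested genes was -0.64. *Fads3*, a further gene of the *Fads* family, went the other way and rose by 1.03 (SE 0.07, adjusted p = 3.3e-05). *Elovl6*, which lengthens palmitate, read 3.04, 2.87 and 3.06 in WT and 2.67, 2.56 and 2.61 in IG27 cells (log2 fold change -0.38, SE 0.07, adjusted p = 0.0031). *Elovl1*, for saturated very long chains, read 5.48, 5.46 and 5.55 in WT and 5.58, 5.56 and 5.57 in IG27 cells and was not called (log2 fold change 0.07, 95% confidence interval -0.045 to 0.19, adjusted p = 0.221). Its dimmer probe had a log2 fold change of 0.15 that narrowly passed the test (adjusted p = 0.0497).

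The 3 acyl-CoA synthetases among the 36 genes, which activate long-chain fatty acids for lipid assembly or oxidation, all fell. Their median log2 fold change was -0.97, and 40.0% of all genes tested were lower. *Acsl3*, known for its part in lipid droplet formation, read 1.80, 1.88 and 1.84 in WT and 0.59, 0.68 and 0.53 in IG27 cells (log2 fold change -1.24, SE 0.06, 2.36-fold, adjusted p = 6.5e-06). *Acsl4*, which prefers arachidonate, read 4.53, 4.45 and 4.60 in WT and 3.73, 3.37 and 3.59 in IG27 cells (log2 fold change -0.97, SE 0.10, adjusted p = 2.2e-04). *Acsl1* read 3.21, 3.20 and 3.28 in WT and 2.31, 2.24 and 2.22 in IG27 cells (log2 fold change -0.97, SE 0.05, adjusted p = 9.5e-06). In each of these genes every IG27 array was below every WT array, and the groups did not overlap in 75.7% of all genes tested. *Acsl1* lies on chromosome 8 and *Acsl4* on chromosome X, where the median log2 fold changes of all tested genes were -0.67 and -0.59. *Acsl5*, a further gene of this family, went the other way and rose by 0.90 (SE 0.06, adjusted p = 2.1e-05).

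The genes do not lie evenly in the genome, and in this comparison whole chromosomes differed. The median log2 fold change of all tested genes was -0.67 on chromosome 8, -0.64 on chromosome 9 and -0.59 on chromosome X, where together 83.1% of genes were called, 70.4% lower and 12.7% higher. On these chromosomes lie 9 of the 36 genes (*Mvd*, *Msmo1* and *Acsl1* on 8, *Scap*, *Sc5d* and *Elovl5* on 9, and *Nsdhl*, *Ebp* and *Acsl4* on X), and all 9 were lower. On the other chromosomes 23 of 27 were called, against 68.4% of all genes there, and 14 were lower (51.9% against 35.0%) and 9 higher (33.3% against 33.4%), with a median log2 fold change of -0.16. Set against the median of its own chromosome, 19 of the 36 genes lay below and 17 above, with a median difference of -0.05. *Scap* lay 1.77 below the median of chromosome 9, *Acsl3* 1.23 below that of chromosome 1 and *Sqle* 0.82 above that of chromosome 15. Whether the number of chromosome copies differs between the lines was not tested.

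**Figure D4:**
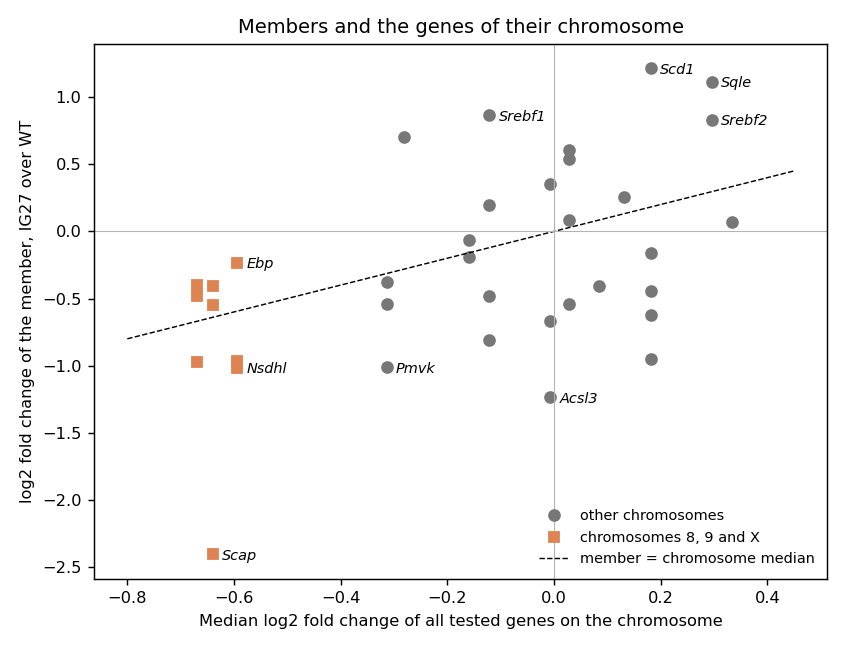
Log2 fold change (IG27 over WT) of each of the 36 genes against the median log2 fold change of all tested genes on its chromosome, with squares for the 9 genes on chromosomes 8, 9 and X and a dashed line where both are equal. The squares all lie below 0 and fall on both sides of the dashed line, and *Scap* lies far below it.

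Of the 10 further genes of sterol and isoprenoid synthesis 9 were tested, of which 5 rose, 1 fell and 3 were not called, with a median log2 fold change of 0.53. *Nus1*, which works in dolichol synthesis, rose by 1.06 (SE 0.08, adjusted p = 4.3e-05). *Acat1*, the mitochondrial acetyl-CoA acetyltransferase, fell by 1.31 (SE 0.05, adjusted p = 3.0e-06), and it lies on chromosome 9.

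Of 16 tested genes of sterol uptake, transport and export, 5 rose, 6 fell and 5 were not called. The lipoprotein receptors differed in direction. *Vldlr*, the very low density lipoprotein receptor, read 1.06, 0.99 and 0.91 in WT and 3.00, 3.09 and 2.90 in IG27 cells (log2 fold change 2.01, SE 0.07, 4.04-fold, adjusted p = 1.9e-06). *Lrp1*, a related receptor, fell by 0.96 (SE 0.06, adjusted p = 1.6e-05), as did *Cyp46a1*, the cholesterol 24-hydroxylase, by 0.92 (SE 0.14, adjusted p = 0.0011).

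Beyond the 36 genes, fatty acid metabolism changed in both directions. In the list of further synthesis, elongation and activation genes, 8 of 20 tested rose and 6 fell. The elongases *Elovl4* and *Elovl7* moved apart, by 1.41 (SE 0.06, adjusted p = 4.8e-06) and by -2.51 (SE 0.06, adjusted p = 4.1e-07) on the log2 scale. Of 18 genes of glycerolipid assembly and storage, 8 rose and 8 fell. *Plin3*, a lipid droplet coat protein gene, read -2.23, -2.14 and -2.01 in WT and 1.99, 1.87 and 2.06 in IG27 cells (log2 fold change 4.10, SE 0.08, 17.1-fold, adjusted p = 2.1e-07). *Mgll*, monoacylglycerol lipase, rose by 1.74 (SE 0.05, adjusted p = 7.5e-07), and *Agpat4*, an acyltransferase of phosphatidic acid synthesis, fell by 1.56 (SE 0.06, adjusted p = 2.1e-06).

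Of 23 tested genes of fatty acid oxidation, 9 rose and 11 fell, with a median log2 fold change of -0.07. *Ppargc1b*, a transcriptional coactivator, and *Acads*, the short-chain acyl-CoA dehydrogenase, rose by 2.11 (SE 0.05, adjusted p = 3.2e-07) and 2.04 (SE 0.05, adjusted p = 5.7e-07). *Slc25a20*, the carnitine-acylcarnitine carrier, fell by 1.68 (SE 0.24, adjusted p = 9.5e-04). Of 7 tested genes of fatty acid uptake and binding, 3 rose and 3 fell, among them the transporters *Slc27a1* (log2 fold change 1.46, SE 0.08, adjusted p = 1.1e-05) and *Slc27a3* (-0.70, SE 0.05, adjusted p = 3.5e-05) and the binding protein gene *Fabp5* (0.93, SE 0.06, adjusted p = 1.9e-05). *Fabp7*, the brain fatty acid binding protein gene and a marker of radial glia, had a signal in WT cells that was not well above background, and was at least 110.4-fold higher in IG27 cells (adjusted p = 1.4e-07). For this bound each WT value was raised, where lower, to the dimmest signal that counted as well above background on that array.

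The glial label was checked against 7 lists of marker genes, and members of most lists went both ways between the groups. Of 9 genes of astrocytes and radial glia, 7 were well above background on every WT array and 8 on every complete IG27 array, with *Slc1a3* and *Fabp7* at background in WT cells. Of these genes 2 were called higher, 4 lower and 3 were not called, and *Gfap*, *Slc1a2*, *Aldh1l1* and *Nes* were lower on every IG27 array. Their summed level, in units of the 75th percentile of the array, ran from 270.5 to 284.7 in WT and from 196.1 to 207.5 in IG27 cells. The sum is linear and rests mostly on *Vim* and *Gfap*. *Gfap* read 6.56, 6.66 and 6.71 in WT and 5.41, 5.60 and 5.70 in IG27 cells, and *Vim* 7.09, 7.09 and 7.13 against 7.07, 6.87 and 6.94. All 5 markers of oligodendrocytes, which make much of the cholesterol of myelin, were well above background in both groups, with sums of 48.7 to 58.9 in WT and 30.6 to 32.2 in IG27 cells, where *Cnp* fell (log2 fold change -1.52) and *Mbp* rose (0.92). Of 5 markers of oligodendrocyte progenitors 4 were well above background on every WT array and 5 on every complete IG27 array, with sums of 58.7 to 61.7 and 57.6 to 59.3, and *Pdgfra* (2.36), *Olig1* (1.48) and *Olig2* (1.51) rose while *Sox10* fell (-0.37). Of 5 neuronal markers *Rbfox3* and *Syt1* were at background on all complete arrays and *Snap25* was well above it on all 5 and was not called (log2 fold change -0.11, adjusted p = 0.410). *Stmn2* was well above background on every WT array and on no complete IG27 array, *Map2* on 1 WT array and both complete IG27 arrays (called higher), and the neuronal sums ran from 4.68 to 6.06 in WT and from 7.84 to 8.77 in IG27 cells. Endothelial sums ran from 0.17 to 0.19 in WT and from 2.60 to 2.67 in IG27 cells, where *Kdr* was at least 134.8-fold higher by the same bound, while *Cdh5*, *Cldn5* and *Tek* were at background in both groups. Sums for fibroblasts and pericytes ran from 126.2 to 128.9 in WT and from 64.3 to 69.6 in IG27 cells. Of these markers *Col1a1* and *Pdgfrb* were called lower, and *Dcn*, not well above background on any WT array, was called higher. Sums for microglia ran from 4.93 to 5.30 in WT and from 2.62 to 2.93 in IG27 cells, where *Tmem119* and *Csf1r* fell, *Aif1* and *P2ry12* rose and *Cx3cr1* was at background. The part of these markers in the results above was not tested. In RNA of whole dishes, fewer cells of a kind and less RNA per cell cannot be told apart.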

How the data were processed

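The 3 WT and 3 IG27 samples were hybridized to 6 single-color arrays on the same slide. The authors deposited processed intensities from Agilent Feature Extraction (10.7.3.1 per the file headers, 9.1 per the submitters' processing notes), on a linear scale with no scaling between arrays. From the deposited intensity, log2 values were computed and the 75th percentile over 56605 non-control probes was subtracted per array. Outlier-flagged spots, 107 to 210 on the complete arrays, were removed. The scanner output of IG27 replicate 2 holds 285 of 62976 spots, so the deposited value table gave its values. All 255 single-spot probes it shares with the table were equal (relative tolerance 1e-04). In that table WT replicates 2 and 3 are exchanged relative to the scanner output, whose labels were followed. Accessions named 32994 probes for 22911 genes through a RefSeq table of GRCm38.p6, used for names and chromosomes, since the file headers name the build mm9. The brightest probe stood for a gene, and 61 probes covered the 36 genes. Of 20 genes with more than 1 probe, 18 had probes of one sign, and 5 had probes that differed in the call (*Acacb*, *Ebp*, *Elovl1*, *Elovl5* and *Mvk*).

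A gene entered the test if its probe exceeded background (by the scanner software's flag) on all complete arrays of either group. The 14898 genes that did were fitted with limma 3.58.1 (lmFit, then eBayes; R 4.3.3) without a block, and two-sided p-values were adjusted over them by Benjamini and Hochberg's method at a threshold of 0.05. The methods name a moderated t-test, which is limma's test, with a threshold of 0.05 and no stated adjustment. The genes and lists were chosen with earlier results of these data known. Named with array values were the up to 4 largest changes of each role and members that opposed their role, and of each further list up to 3 called genes with the largest changes among those well above background in both groups. *Mbtps1*, *Erlin1*, *Erlin2*, *Fabp7*, *Acsl5* and *Fads3* are outside that rule and were named after their values were seen. Some genes of the further lists are counted but not reported by name here. The alternatives were other normalizations, a background correction, filters, probes, blocks, each array left out and other thresholds. Genes on chromosomes other than 8, 9 and X were counted apart after the data were seen.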

Additional observations from a re-analysis of the deposited data

How the results depend on the processing

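Of 648 values of single genes (36 genes in 18 settings), 613 kept their direction and their side of the threshold, 22 lost the call, 7 gained it and 6 reversed, and 28 genes kept both in every setting. The number of the 36 genes called ran from 28 (row of the slide as a block, where WT replicate 2 is the only WT array beside the IG27 arrays) to 33. Leaving out 1 array gave 29 to 33 called, 9 to 10 higher and 20 to 23 lower, with 9799 to 10143 of all genes and 74 to 79 of the 102 further genes. With the demand of at least a 2-fold change 6 were called, 2 higher and 4 lower, with 3445 of all genes and 18 further genes. On chromosomes other than 8, 9 and X, added after seeing the data, 14 were lower. *Idi1* reversed to 0.092 with quantile normalization, 0.038 when centered on the median of tested genes and 0.054 with the slide row as a block. *Acacb* reversed to -0.0019 with quantile normalization, -0.26 with the mean of its probes (adjusted p = 0.0175) and -0.015 without IG27 replicate 1 (from there to 0.156, without IG27 replicate 2, over the arrays left out), and the cause was not tested except that its probes differ in sign. Lost calls were those of *Hmgcs1* and *Ebp* (quantile normalization, centering, slide row and left-out arrays), *Scd2* (centering, no filter, blocks and left-out arrays) and *Acly* (normexp on the spot and local background medians and the slide row). *Dhcr7* and *Elovl1* gained a call with quantile normalization (0.35 and 0.17) and when centered on the median (0.36 and 0.17). That centering moved the median of all genes from -0.07 to 0.03, and called genes higher in IG27 cells were then 50.7% of all calls in place of 43.3% (35.5% in place of 28.1% for the 36 genes). Without the filter that median was 0.12. Samples of the same replicate number did not deviate together (correlations of 0.0118, 0.0395 and 0.0763), so they share a number only. With the replicate block 32 of the 36 genes were called, 10 higher and 22 lower, with 10309 of all genes and 81 further genes. The median standard error was 0.063 among all genes with a mean signal above that of the median gene, against 0.073 over all genes. Among the 36 genes the largest was that of *Dhcr7* (0.11). *Srebf1*, the dimmest of them, ranged from 0.55 to 0.96 over the settings.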
